A study of Mus musculus with 768 samples.

Results

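Frzb and 6 other genes for secreted antagonists of Wnt signalling were followed through the programming of mouse embryonic stem cells towards motor neurons. The 7 genes, of 27723 in the table of expression values, were Frzb, Sfrp1, Sfrp2, Sfrp5, Dkk1, Dkk3 and Wif1, and all 7 were present in it (spelled FRZB, SFRP1, SFRP2, SFRP5, DKK1, DKK3 and WIF1). They were chosen by name, and Frzb because its level was higher at 30 h than at 6 h, so that this difference is described here and supports nothing else. The cells came from embryoid bodies of the inducible Ainv15 line iNgn2.Isl1.Lhx3.V5, in which doxycycline switches on a V5-tagged cassette of Ngn2 (Neurog2), Isl1 and Lhx3. All groups carry this cassette and no line without it is included, so time after doxycycline and time in culture cannot be told apart. The stem cells had been kept with LIF, PD0325901 and CHIR, an inhibitor of the kinase GSK3 that raises Wnt signalling, and the embryoid bodies were seeded 2 days before doxycycline in a medium for which these are not listed. At 0 h no doxycycline had been added, and the groups at 6, 12, 18, 24, 30, 36 and 48 h had it at 3 µg/ml. Viable cells were sorted 1 to a well, 96 per time point, and their RNA was sequenced by SMART-Seq2, which covers whole transcripts.

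Wnt proteins are secreted signals that bind Frizzled receptors and the co-receptors Lrp5 and Lrp6, which stabilises β-catenin and lets it act with Tcf and Lef factors on target genes. Secreted antagonists work outside the cell. Frzb (also called sFRP3) and the Sfrp proteins carry a cysteine-rich domain like that of Frizzled and bind Wnt proteins, Wif1 binds Wnt proteins through its own WIF domain, and Dkk1 binds Lrp5 and Lrp6. Dkk3 is a divergent Dickkopf protein with no settled receptor. Wnt signalling supports the self-renewal of mouse embryonic stem cells, drives formation of the primitive streak, and in the neural tube favours posterior and dorsal fates.

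Expression was read as TPM, an abundance corrected for transcript length and brought to the same total in each cell. A gene is called detected in a cell where it is above 0 TPM. Cells with at least 2000 genes above 0 TPM were kept, and 37, 53, 52, 56, 55, 57, 44 and 14 cells remained at 0, 6, 12, 18, 24, 30, 36 and 48 h, or 368 of 768. The libraries fell apart by Sod1, whose mean lay between 19553 and 65262 TPM at 0, 12, 36 and 48 h and between 518 and 807 TPM at 6, 18, 24 and 30 h, and levels are compared only within these sets of time points. The labels state 2 batches of libraries and do not assign cells to them. The median number of genes per kept cell was between 6481 and 7484 in the set of 6 to 30 h. In the other set it was 5304, 4269, 2894 and 2141 at 0, 12, 36 and 48 h, so that more values of 0 can be missed transcripts there. Hprt, a gene used by all cells, was detected in 59.6% of cells at 30 h but in 10.8% at 0 h and 7.14% at 48 h. The defining genes of the labelled cells were present: the summed level of 10 pluripotency markers had a median of 5749 TPM at 0 h, and Lhx3 was found in 28 of 52 cells at 12 h, against 1 of 37 at 0 h. In the other set that sum had a median of 486 TPM at 30 h, against 2365 TPM at 6 h. Each time point is 1 sample, so no test of significance is possible, every SD is between cells of 1 sample, and shares of cells carry exact (Clopper-Pearson) 95% intervals that cover counting error only. Fewer cells of a type and less RNA per cell cannot be told apart in a mean over cells, for which the shares are given beside it.

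Frzb lies on the minus strand at chr2:80411970-80447396 (GRCm38.p6, the build that mm10 names). In the set of 6 to 30 h it was seen in more cells at each later time point. It was detected in 1 of 53 cells at 6 h (1.89%, interval 0.0478 to 10.1%), 11 of 56 at 18 h (19.6%, 10.2 to 32.4%), 19 of 55 at 24 h (34.5%, 22.2 to 48.6%) and 28 of 57 at 30 h (49.1%, 35.6 to 62.7%). The intervals at 18 and 24 h and at 24 and 30 h overlap each other. That at 6 h lies below the later ones, narrowly so at 18 h. Frzb was chosen for this rise, so nothing is read from that gap. The median number of genes per cell was 6481 at 30 h and 7484 at 6 h, and the part of depth in these shares was not tested.

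The median level in the cells that held Frzb was also higher at each step over 18, 24 and 30 h. The only such cell at 6 h had 10.1 TPM. At 18 h the lowest, median and highest of the 11 values were 0.460, 7.69 and 57.0 TPM, at 24 h those of the 19 values were 2.33, 18.4 and 149 TPM, and at 30 h those of the 28 values were 1.52, 35.2 and 290 TPM. The ranges overlap between 18, 24 and 30 h. Over all kept cells the mean was 0.190 ± 1.38 TPM (SD) over 53 cells of 6 h, 2.86 ± 9.88 over 56 of 18 h, 10.7 ± 25.4 over 55 of 24 h and 24.8 ± 45.6 over 57 of 30 h. The highest cell held 35.6% of the summed Frzb at 18 h, 25.3% at 24 h and 20.5% at 30 h.

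As a fold, the mean of Frzb was 4.44 higher at 30 h than at 6 h on the scale of log2(mean TPM + 1), which is the contrast it was chosen by. The values for 18 h and 24 h against 6 h were 1.70 and 3.30, and all of these share the 6 h cells. At 18 h Frzb did not reach the filter used for counts of genes, a mean of at least 10 TPM with at least 25% of cells above 0 in the higher time point. Among the 2000 highest genes of each cell, Frzb appeared in 0 of 53, 1 of 56, 3 of 55 and 8 of 57 cells at 6, 18, 24 and 30 h. Its share at 30 h on this measure was 14.0%. Depth enters this measure too, as a limit of 2000 genes takes in a larger part of a cell with fewer genes.

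The other set of time points was not used in choosing Frzb, and there it was at 0 before doxycycline and found in a few cells later. All 37 cells of 0 h had a Frzb value of 0, so a true share as high as 8.11% stays within what a count of 0 allows. It was detected in 3 of 52 cells at 12 h (5.77%, 1.21 to 15.9%), 5 of 44 at 36 h (11.4%, 3.79 to 24.6%) and 3 of 14 at 48 h (21.4%, 4.66 to 50.8%), and all of these intervals overlap the one at 0 h, whose exact upper bound is 9.49%. The 3 values at 12 h were 1.45, 4.66 and 225 TPM, and the highest of them makes up 97.4% of the sum. At 36 h the 5 values lay between 14.9 and 306 TPM with a median of 88.8, and at 48 h they were 31.3, 62.8 and 135 TPM. The means were 4.44 ± 31.2 TPM (SD) over 52 cells of 12 h, 12.8 ± 49.8 over 44 of 36 h and 16.3 ± 38.6 over 14 of 48 h. No fold is given against a time point listed at 0.

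**Figure D1:**
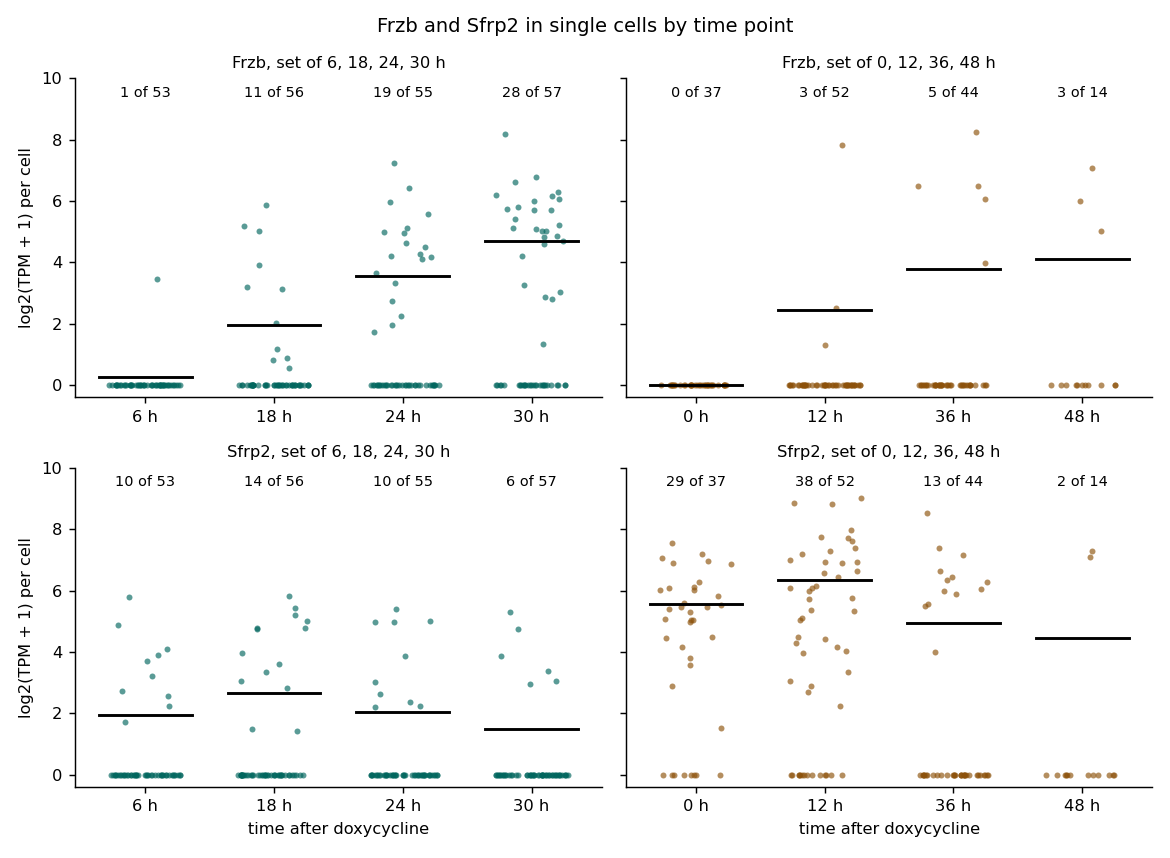
Level of Frzb (top) and Sfrp2 (bottom) as log2(TPM + 1) in each kept cell, by hours after doxycycline, with the set of 6, 18, 24 and 30 h on the left and that of 0, 12, 36 and 48 h on the right. Points are cells, black bars the log2 of the mean TPM + 1, and the numbers at the top the cells above 0. Frzb goes up over 6 to 30 h to 28 of 57 cells, and Sfrp2 is above 0 in 29 of 37 cells at 0 h and 38 of 52 at 12 h.

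Sfrp2 (chr3:83765750-83774314, plus strand) showed a different course and was the main member before doxycycline. It was detected in 29 of 37 cells at 0 h (78.4%, 61.8 to 90.2%), 38 of 52 at 12 h (73.1%, 59.0 to 84.4%), 13 of 44 at 36 h (29.5%, 16.8 to 45.2%) and 2 of 14 at 48 h (14.3%, 1.78 to 42.8%). The intervals of 36 and 48 h lie below those of 0 and 12 h without overlap. The lowest, median and highest values above 0 were 1.86, 43.3 and 189 TPM at 0 h. At 12 h they were 3.67, 67.2 and 515 TPM, and at 36 h 14.8, 77.5 and 372 TPM, while the 2 cells of 48 h had 135 and 156 TPM. Among the cells that held it, Sfrp2 was thus not lower at the later times, although the lowest value seen was also higher at those shallower times.

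Over all kept cells Sfrp2 averaged 45.9 ± 47.9 TPM (SD) in the 37 of 0 h, 80.7 ± 120 in the 52 of 12 h, 29.8 ± 66.8 in the 44 of 36 h and 20.8 ± 53.0 in the 14 of 48 h. The log2 fold change was 0.80 at 12 h, -0.61 at 36 h and -1.11 at 48 h, each against 0 h, beside medians of 0.04, -0.18 and -0.62 over all genes that passed the filter. With all cells included, 48 h against 0 h turned to 1.64, and with cells of at least 1000 genes to 0.080, so its direction at 48 h depends on which cells are kept. The genes per cell fall along with the share of cells, and their part in it was not tested. Among the 2000 highest genes of each cell Sfrp2 appeared in 35.1%, 46.2%, 27.3% and 14.3% of cells at 0, 12, 36 and 48 h. At 36 and 48 h, with medians of 2894 and 2141 genes per cell, these 2000 were most of the genes seen, so these shares also depend on depth.

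In the set of 6 to 30 h Sfrp2 was low at every time point. It was detected in 10 of 53 cells at 6 h (18.9%, 9.44 to 32.0%), 14 of 56 at 18 h (25.0%, 14.4 to 38.4%), 10 of 55 at 24 h (18.2%, 9.08 to 30.9%) and 6 of 57 at 30 h (10.5%, 3.96 to 21.5%), and these intervals all overlap. Its means were 2.84 ± 8.94, 5.28 ± 12.2, 3.10 ± 8.93 and 1.78 ± 6.47 TPM at 6, 18, 24 and 30 h. The means at 0, 6 and 12 h (45.9, 2.84 and 80.7 TPM) stand in different library sets and cannot be read as a course over time.

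The promoters of these genes are shown because the cassette encodes factors with known preferences, Neurog2 for E-boxes (CANNTG) and Isl1 and Lhx3 for homeodomain sites such as TAATTA. The windows, from RefSeq (GRCm38.p6), reach from 250 bases before a gene's start through its first 50 bases, and 5 of the 7 members had one, Sfrp1 and Dkk3 being without. That of Frzb is chr2:80447347-80447646 on the minus strand and that of Sfrp2 is chr3:83766071-83766370 on the plus strand, with the bases of any E-box in capitals. RefSeq starts Sfrp2 downstream of the GENCODE start given above, so its window lies within the GENCODE gene.
Frzb: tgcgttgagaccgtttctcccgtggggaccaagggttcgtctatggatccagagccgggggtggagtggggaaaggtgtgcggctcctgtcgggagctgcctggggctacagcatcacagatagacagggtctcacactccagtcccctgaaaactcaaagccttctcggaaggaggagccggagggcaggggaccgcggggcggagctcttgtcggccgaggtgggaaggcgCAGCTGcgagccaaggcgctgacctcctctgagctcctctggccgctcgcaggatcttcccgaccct
Sfrp2: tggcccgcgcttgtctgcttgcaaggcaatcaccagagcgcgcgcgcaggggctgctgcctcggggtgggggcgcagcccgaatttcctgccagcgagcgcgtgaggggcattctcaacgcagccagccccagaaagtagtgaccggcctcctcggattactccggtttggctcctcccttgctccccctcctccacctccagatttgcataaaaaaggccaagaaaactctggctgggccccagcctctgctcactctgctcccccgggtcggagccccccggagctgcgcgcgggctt
The Frzb window held 1 E-box, CAGCTG, with its first base 17 bases before the start, and the Sfrp2 window held none. Those of Sfrp5 and Wif1 held 1 and 2, and that of Dkk1 held none. On both strands, CANNTG occurred in 72.31% of all 32851 promoter windows of this length, so that a single match does not set Frzb apart. The sequences TAATTA, found in 5.291% of all windows, and CTTTGAT, a Tcf and Lef motif found in 3.729%, were in none of the 5. A match is a stretch of letters and not a measured binding site.

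Sfrp1 (chr8:23411383-23449632, plus strand), an antagonist of the same family that binds Wnt proteins, was found in a minority of cells at every time point. It was detected in 6 of 37 cells at 0 h (16.2%, 6.19 to 32.0%), 14 of 52 at 12 h (26.9%, 15.6 to 41.0%), 8 of 44 at 36 h (18.2%, 8.19 to 32.7%) and 1 of 14 at 48 h (7.14%, 0.181 to 33.9%). All of these intervals overlap. The means were 7.97 ± 27.4 TPM (SD) over the 37 cells of 0 h, 22.3 ± 56.2 over the 52 of 12 h, 41.1 ± 173 over the 44 of 36 h and 21.4 ± 80.3 over the 14 of 48 h. Single cells set the later means, since 1 cell with 1092 TPM held 60.4% of the sum at 36 h and the only cell at 48 h had 300.3 TPM.

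Sfrp1 was 1.38 higher at 12 h than at 0 h in log2(mean TPM + 1), and it was the only member that passed the filter and was at least 2-fold higher in that comparison. The other member that passed was Sfrp2, at 0.80. Of all 5848 genes that passed, 17.0% were at least 2-fold higher at 12 h and 13.0% lower, so 1 of 2 members rests on too few genes to be set against this share. The value was under 2-fold in even-numbered cells (0.38), as a mean of log2 values (0.61) and with a pseudocount of 10 TPM (0.85). In the set of 6 to 30 h Sfrp1 was detected in 9 of 53, 14 of 56, 6 of 55 and 9 of 57 cells at 6, 18, 24 and 30 h, with means of 0.522 ± 1.57, 1.48 ± 3.63, 1.03 ± 4.36 and 2.39 ± 7.38 TPM.

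Sfrp5 (chr19:42197971-42202252, minus strand), another Sfrp gene, was detected in at most 3 cells of any time point. In the set of 0 to 48 h it was seen in 2 of 37, 3 of 52, 1 of 44 and 0 of 14 cells, with means of 1.39, 7.03 and 3.26 TPM at 0, 12 and 36 h. Of the sum at 12 h, 94.7% came from 1 cell with 346 TPM. At 6, 18, 24 and 30 h it was seen in 3 of 53, 3 of 56, 3 of 55 and 1 of 57 cells, with means between 0.0356 and 0.482 TPM.

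Dkk1 (chr19:30545876-30549496, minus strand), which blocks the Lrp5 and Lrp6 co-receptors, was seen in few cells and at low levels. It was detected in 5 of 53 cells at 6 h (9.43%, 3.13 to 20.7%), 7 of 56 at 18 h (12.5%, 5.18 to 24.1%), 7 of 55 at 24 h (12.7%, 5.27 to 24.5%) and 8 of 57 at 30 h (14.0%, 6.26 to 25.8%). The intervals overlap almost wholly. Its means were 0.104 ± 0.353, 1.54 ± 6.26, 0.985 ± 5.89 and 1.11 ± 4.78 TPM at 6, 18, 24 and 30 h, under the filter at each. At 24 h 1 cell with 43.7 TPM held 80.6% of the sum, and at 30 h 1 cell with 33.8 TPM held 53.4%. In the other set Dkk1 was detected in 2 of 37, 3 of 52, 1 of 44 and 0 of 14 cells at 0, 12, 36 and 48 h.

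Dkk3 (chr7:112116019-112159482, minus strand) was listed at 0 in every kept cell of 0, 12, 36 and 48 h, 147 cells in all. The counts of 0 allow shares of up to 8.11%, 5.77%, 6.82% and 21.4% at these times. In the set of 6 to 30 h it was detected in 5 of 53, 5 of 56, 7 of 55 and 3 of 57 cells at 6, 18, 24 and 30 h, with means of 0.812 ± 3.17, 0.694 ± 3.40, 7.09 ± 29.4 and 1.16 ± 6.09 TPM. The higher mean at 24 h rests on few cells, as the highest, with 169 TPM, held 43.3% of the sum. Wif1 (chr10:121034004-121100642, plus strand) was seen in 5 kept cells of the series, 1 at 12 h (28.8 TPM), 2 at 18 h (42.9 and 89.1 TPM), 1 at 30 h (10.1 TPM) and 1 at 36 h (9.12 TPM).

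**Figure D2:**
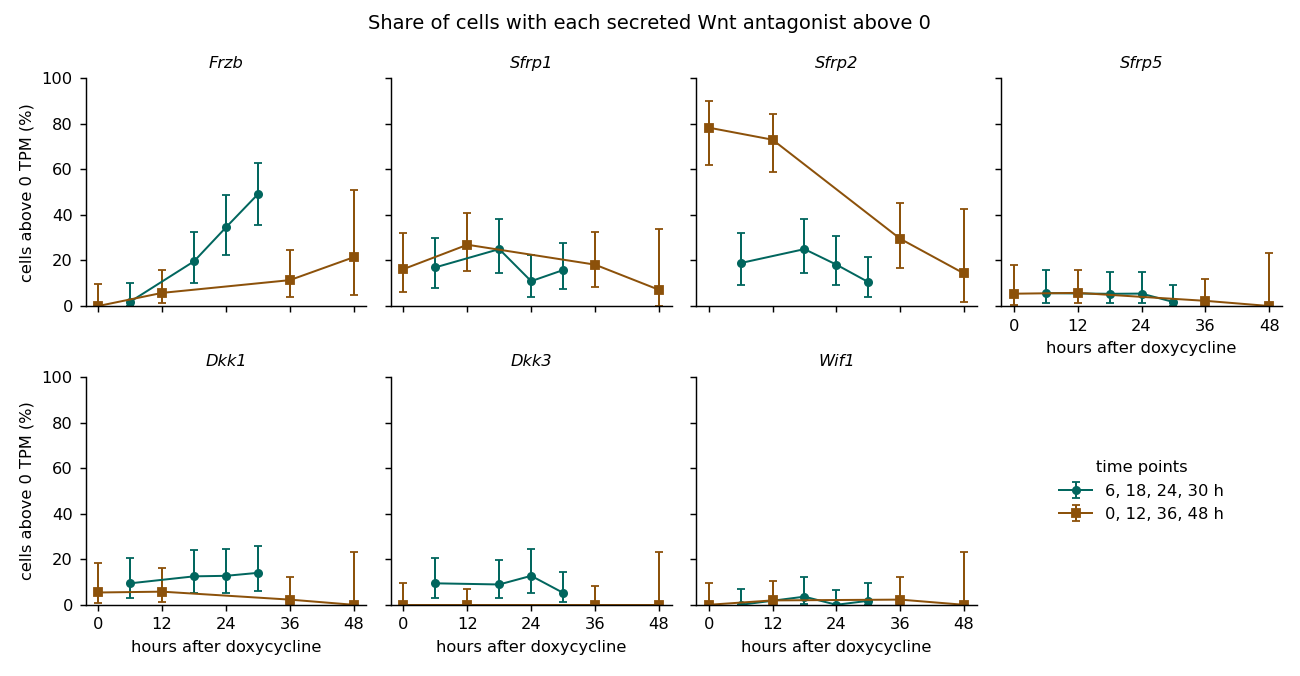
Share of kept cells with each of the 7 secreted antagonists above 0 TPM (vertical axis, percent) against hours after doxycycline, with exact 95% intervals as bars. Lines join the time points of 1 library set, green circles for 6 to 30 h and brown squares for 0 to 48 h. Frzb climbs to 49.1% at 30 h, Sfrp2 stands at 78.4% at 0 h and 14.3% at 48 h, and Dkk1, Dkk3, Sfrp5 and Wif1 stay at or under 14.0%.

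The makeup of this small group of RNAs differed across the time points. At 6 h the means of the 7 genes summed to 4.93 TPM, of which Sfrp2 made 57.7% and Frzb 3.86%. Frzb made 19.7% of 14.5 TPM at 18 h, 45.7% of 23.4 TPM at 24 h and 78.8% of 31.5 TPM at 30 h, where Sfrp2 made 5.66%. Frzb was chosen for its rise over these times, so nothing is read from its growing share or from the growing sum. In the other set Sfrp2 made 82.9% of 55.4 TPM at 0 h and 69.9% of 115 TPM at 12 h. Sfrp1 was the largest at 36 h with 47.0% of 87.4 TPM, and at 48 h Sfrp1, Sfrp2 and Frzb made 36.6%, 35.5% and 27.9% of 58.6 TPM. The sums at 36 and 48 h rest on few cells each, as given above.

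Most cells that held any of these RNAs held 1 kind. At least 1 member was detected in 41.5%, 62.5%, 63.6% and 68.4% of cells at 6, 18, 24 and 30 h, and in 78.4%, 84.6%, 50.0% and 42.9% at 0, 12, 36 and 48 h. Frzb, chosen for its rise from 6 to 30 h, is among the members counted. Nothing is therefore read from the larger share at the later of these times. At 30 h 24 cells held 1 member, 13 held 2 and 2 held 3 or more, while 18 held none. At 48 h all 6 cells with a member held only 1.

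Counted by size, Frzb was the only member that passed the filter in 30 h against 6 h, and it was higher. Since Frzb was chosen by this contrast, nothing is read from that count, nor from the share of all 6317 passing genes that were at least 2-fold higher (13.9%). Sfrp1 and Dkk1 stood 1.16 and 0.93 higher at 30 h than at 6 h and Sfrp2 and Sfrp5 stood at -0.47 and -0.49, but none of these reached the mean of 10 TPM. Dkk3 stood at 0.26, and Wif1 was listed at 0 at 6 h. In 24 h against 6 h Frzb was also the only member to pass, where 13.5% of all passing genes were at least 2-fold higher and 6.28% lower. That comparison shares the 6 h cells and lies within the rise Frzb was chosen for, so nothing is read from it either. In 18 h against 6 h 0 of 7 members passed (11.8% of all passing genes higher, 7.36% lower). At 36 h against 0 h only Sfrp2 passed and was within 2-fold (22.5% of all genes higher, 28.5% lower), and at 48 h against 0 h it alone passed and was at least 2-fold lower, as were 43.4% of all genes, with 22.8% higher.

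Other genes of the pathway were taken from a list of 98, of which 97 were found in the table. In 30 h against 6 h 22 of them passed the filter, and 10 were at least 2-fold higher and 1 lower. Their median log2 fold change was 0.90, beside 0.20 over all passing genes, of which 13.9% were at least 2-fold higher and 6.03% lower. In 12 h against 0 h 24 passed, with 9 at least 2-fold higher and 1 lower and a median of 0.76. Over all passing genes that median was 0.04, with 17.0% at least 2-fold higher and 13.0% lower. The comparisons share no cells, but the list was drawn up with results of these data known, and most of its genes were too low to pass in either comparison. With a pseudocount of 10 TPM 4 of these genes were at least 2-fold higher at 30 h than at 6 h and 0 lower. With all cells included 18 passed, with 3 higher and 5 lower, so the balance of higher and lower genes depends on which cells are kept.

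Few genes for the signals themselves passed the filter. Of 23 genes for Wnt and R-spondin ligands only Wnt8a passed in 30 h against 6 h (13.5 TPM at 30 h, 9.51 TPM at 6 h), and none passed in 12 h against 0 h. Of all 27723 genes, 6317 passed in the first comparison and 5848 in the second. Some other ligand genes were high in few cells. Rspo3 was listed at 0 at 0 h and averaged 28.4 TPM at 36 h (5 of 44 cells) and 226 TPM at 48 h (2 of 14). Rspo1 averaged 29.0 TPM at 48 h (1 of 14 cells) and Wnt3 16.6 TPM at 12 h (7 of 52). Wls, the carrier that takes Wnt proteins to the cell surface, was detected in 51 of 57 cells at 30 h and 37 of 53 at 6 h, and averaged 88.1 ± 105 TPM at 30 h and 12.3 ± 22.2 TPM at 6 h (SD over cells). Its log2 fold change was 2.75. At 18 and 24 h the mean of Wls was 55.6 and 59.2 TPM, already well above that at 6 h.

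None of 20 receptor genes passed in 30 h against 6 h, where 6317 of all 27723 genes did. In 12 h against 0 h 4 passed, and of these Fzd7, a Frizzled receptor, was 1.13 higher (16.0 TPM at 12 h, 6.79 TPM at 0 h), though it stood at -0.094 as a mean of log2 values. Lgr4, another of the 4, was 0.95 higher (419 TPM at 12 h, 216 TPM at 0 h). It alone passed in 18 h against 6 h, at 2.25 (34.0 TPM at 18 h, 6.36 TPM at 6 h). At 24 and 30 h Lgr4 averaged 6.38 and 5.74 TPM. Of the 11 other secreted antagonists, only Igfbp4 passed in 30 h against 6 h, at 0.79. Sfrp4, a further member of the Sfrp family, was lower at 12 h, with 0.781 TPM, than at 0 h, with 15.7 TPM, a log2 fold change of -3.22. Cer1, which binds Nodal and BMP proteins, was detected in at most 7 cells of a time point, with means up to 0.602 TPM. Dkkl1, a Dickkopf-like gene, was detected in at most 3 cells of a time point.

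Inside the cell, 7 of 12 listed genes passed in 30 h against 6 h and 3 were at least 2-fold higher (13.9% over all passing genes). These were Csnk1e, a casein kinase that acts on Dishevelled, at 2.00 (14.2 TPM at 30 h, 2.79 TPM at 6 h), Dvl3, a Dishevelled relay protein, at 1.29 (15.6 TPM at 30 h, 5.82 TPM at 6 h), and Gsk3b, the kinase that marks β-catenin for destruction, at 1.24 (27.4 TPM at 30 h, 11.0 TPM at 6 h). The same 3 genes were at least 2-fold higher in 12 h against 0 h, at 2.63, 1.27 and 1.32, although Csnk1e was at 0.81 in even-numbered cells and Gsk3b at 0.74 in cells with at least 4000 genes. Ctnnb1, the gene for β-catenin, was detected in 55 of 57 cells at 30 h and 51 of 53 at 6 h, with 148 ± 107 TPM at 30 h and 84.5 ± 76.5 TPM at 6 h.

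Among nuclear genes 7 of 14 passed in 30 h against 6 h and 3 were at least 2-fold higher (13.9% over all passing genes). Bcl9, a co-activator of β-catenin, stood at 1.47, Tcf7l2, a DNA-binding partner of β-catenin, at 1.37 and Ctbp1, a co-repressor, at 1.15. With all cells included Dvl3 and Tcf7l2 turned to -0.38 and -0.96, and Bcl9, Csnk1e and Gsk3b came under 2-fold at 0.033, 0.62 and 0.79. Bcl9 was also under 2-fold in odd-numbered cells (0.83) and in cells with at least 1000 genes (0.88), where Tcf7l2 was at 0.46. Lef1, another such partner, was 0.95 higher at 30 h than at 6 h (14.7 ± 43.7 TPM at 30 h, 7.16 ± 16.2 TPM at 6 h) and 1.75 higher at 12 h than at 0 h (27.6 ± 97.9 TPM at 12 h, 7.53 ± 26.3 TPM at 0 h), but 0.52 for 12 h against 0 h as a mean of log2 values. Rescaling the means to a median log2 ratio of 0 brought Ctbp1 to 0.95.

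Of the genes often used as readouts of Wnt signalling, Axin2 and Sp5 were too low to pass the filter. Axin2, a feedback inhibitor and common reporter of the pathway, was detected in 14 of 57 cells at 30 h (24.6%, 14.1 to 37.8%) and 10 of 53 at 6 h (18.9%, 9.44 to 32.0%), with means of 2.87 ± 7.43 TPM at 30 h and 1.16 ± 3.41 TPM at 6 h. None of the 44 cells of 36 h or the 14 of 48 h had it above 0. Sp5, a direct target in embryonic cells, was detected in 6 of 57 cells at 30 h and 0 of 53 at 6 h, with a mean of 0.689 TPM at 30 h.

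Of the 15 target genes 5 passed in 30 h against 6 h. T, the brachyury gene of the primitive streak, was detected in 18 of 57 cells at 30 h and 4 of 53 at 6 h, and averaged 49.3 ± 129 TPM at 30 h, against 0.314 ± 1.49 TPM at 6 h, a log2 fold change of 5.26, which turned to -0.12 when all cells were included. Ccnd2, a D-type cyclin, was 2.48 higher (153 TPM at 30 h, 26.6 TPM at 6 h) and Tnfrsf19, a receptor of the tumour necrosis factor family, 1.39 higher (65.5 TPM at 30 h, 24.4 TPM at 6 h). Myc, a growth regulator, was lower at 30 h, with 5.44 TPM, than at 6 h, with 15.9 TPM, a log2 fold change of -1.40. In 12 h against 0 h Tnfrsf19, Ccnd1, Ccnd2 and Znrf3, a ligase that removes Frizzled receptors, were 3.29, 2.03, 1.94 and 1.44 higher. Ccnd1 turned to -0.82 in even-numbered cells and Ccnd2 to -0.071 as a mean of log2 values. With all cells Tnfrsf19 came under 2-fold in both comparisons, at 0.82 for 30 h against 6 h and 0.98 for 12 h against 0 h. In cells with at least 4000 genes Ccnd2 and Znrf3 were at 0.83 and 0.98 for 12 h against 0 h.

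**Figure D3:**
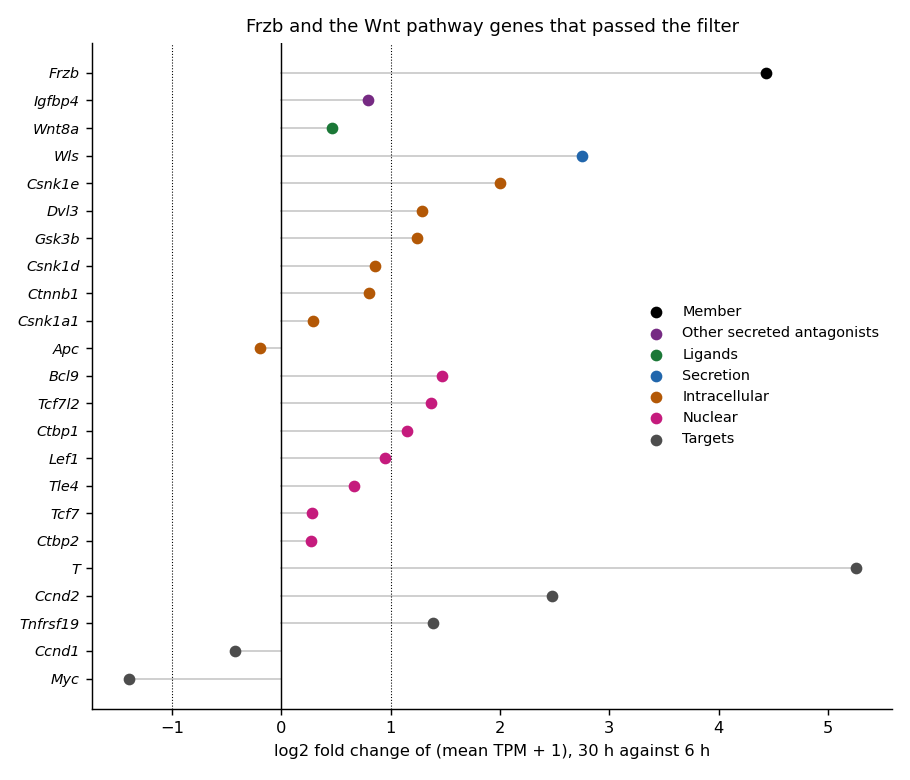
Log2 fold change of mean TPM + 1, 30 h against 6 h (horizontal axis), for Frzb and the 22 genes of the Wnt pathway list that passed the filter (rows, coloured by role). Dotted lines mark 2-fold in either direction. Frzb at 4.44 was chosen by this contrast, and of the other genes T at 5.26 and Wls at 2.75 are the highest and Myc at -1.40 the lowest.

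Within the 30 h cells, those with Frzb above 0 were set beside those with Frzb at 0, as a description over cells of 1 sample. The 28 cells with Frzb had a median of 7030 genes and the 29 without had 6384, and most genes were seen in a larger share of the cells with Frzb. Of the 9115 genes above 0 in at least 25% of 30 h cells, Frzb aside, 71.6% were seen in a larger and 24.4% in a smaller share of the cells with Frzb, and of all 17296 genes seen at 30 h 68.3% and 29.6%. Of 10 neuronal markers 8 were seen in a smaller share of the cells with Frzb. Their summed level had a median of 149 TPM (16.5 to 3764) in cells with Frzb and 582 TPM (14.6 to 5400) in cells without. Gap43, a growth cone protein, was detected in 17 of 28 cells with Frzb and 27 of 29 without, with means of 110 ± 161 and 318 ± 355 TPM. Stmn2, a microtubule regulator of neurons, was detected in 22 of 28 cells with Frzb and 27 of 29 without.

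For pluripotent cells and neural progenitors most markers stood the other way, as did most genes. Of 10 pluripotency markers 8 were seen in a larger share of the cells with Frzb, a count near that over all genes, with a median summed level of 570 TPM (6.94 to 5147) in cells with Frzb and 398 TPM (11.2 to 2935) in cells without. Pou5f1, a core factor of pluripotency, was detected in 17 of 28 cells with Frzb and 12 of 29 without, and Tdgf1, a Nodal co-receptor, in 11 of 28 and 4 of 29. Dppa5a and Dppa4 stood the other way, at 22 of 28 and 24 of 29 cells and at 19 of 28 and 21 of 29. The means of Nanog and Sox2 were also lower with Frzb than without. They were 44.5 ± 62.0 and 77.2 ± 264 TPM for Nanog, and 3.93 ± 6.94 and 4.70 ± 18.9 TPM for Sox2. Fabp7, a fatty acid binding protein and the neural progenitor marker furthest apart in share, was detected in 23 of 28 cells with Frzb and 11 of 29 without. Its means were 269 ± 423 and 90.2 ± 173 TPM. The means of Vim and Pax6, also on this list, stood the other way. They were 151 ± 227 TPM with Frzb and 333 ± 466 without for Vim, and 35.8 ± 48.6 and 46.4 ± 71.5 TPM for Pax6. Of the 8 neural progenitor markers 7 were seen in a larger share of the cells with Frzb (beside the 71.6% over other genes), Olig2 being at 0 in both, while the summed level had a median of 245 TPM with Frzb and 282 TPM without. The ranges of all these sums overlap widely.

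The lower share of most neuronal markers at 30 h was not seen at 24 h, and at 18 h these markers were evenly split. At 24 h 19 cells had Frzb and 36 had not, with medians of 7087 and 6616 genes, and 7 of 10 neuronal markers were seen in a larger share of the cells with Frzb, with a median summed level of 345 TPM with Frzb and 251 TPM without. Gap43 was detected in 14 of 19 and 28 of 36 of these cells, and Fabp7 in 15 of 19 and 22 of 36. Of the pluripotency markers 7 of 10 were again seen in a larger share of the 24 h cells with Frzb, and their summed level had a median of 548 TPM with Frzb and 634 TPM without. At 18 h 5 of 10 neuronal markers were seen in a larger and 5 in a smaller share of the cells with Frzb. The medians of the neuronal sum were then 140 TPM in the 11 cells with Frzb and 153 TPM in the 45 without. Fabp7 was detected in 7 of 11 and 28 of 45 of these 18 h cells. Of the other genes above 0 in at least 25% of cells, 59.2% at 24 h and 64.7% at 18 h were seen in a larger share of the cells with Frzb. Whether the differences at 30 h and 24 h themselves differ was not tested.

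The induced factors were seen in both kinds of cell. At 30 h Lhx3 was detected in 18 of 28 cells with Frzb and 21 of 29 without, with means of 12.9 ± 15.3 and 30.4 ± 34.7 TPM. Isl1 was detected in 18 of 28 cells with Frzb and 19 of 29 without, and Neurog2 in 5 of 28 and 10 of 29. At 24 h all 3 were seen in a larger share of the cells with Frzb, as were 59.2% of the other genes above 0 in at least 25% of cells. Their means at 24 h were nevertheless lower with Frzb than without. These were 21.0 ± 20.3 and 29.9 ± 35.0 TPM for Lhx3, 15.8 ± 29.8 and 17.0 ± 27.9 TPM for Isl1, and 0.330 ± 0.797 and 0.532 ± 1.78 TPM for Neurog2. At 18 h the mean of Lhx3 stood the other way, at 39.2 ± 60.8 TPM with Frzb and 23.9 ± 40.6 TPM without. Those of Isl1 were then 14.2 ± 22.8 and 21.8 ± 53.4 TPM, and those of Neurog2 1.05 ± 1.99 and 1.54 ± 4.08 TPM. Markers of endoderm were near 0, with Sox17, Foxa2 and Gata6 at 0 in every 30 h cell, and of the 10 markers of primitive streak and mesoderm 3 (Mesp1, Evx1 and Gsc) were at 0 in all. T was detected in 10 of 28 cells with Frzb and 8 of 29 without.

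Of the other antagonists at 30 h, Sfrp1 was detected in 5 of 28 cells with Frzb and 4 of 29 without, Sfrp2 in 4 of 28 and 2 of 29, and Dkk1 in 3 of 28 and 5 of 29. Numbers this small do not separate the kinds of cell. At 24 h Sfrp1 was detected in 5 of 19 cells with Frzb and 1 of 36 without. Axin2 was detected in 10 of 28 cells with Frzb and 4 of 29 without at 30 h, but in 4 of 19 and 13 of 36 at 24 h. Wls was detected in 25 of 28 cells with Frzb and 26 of 29 without at 30 h.

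**Figure D4:**
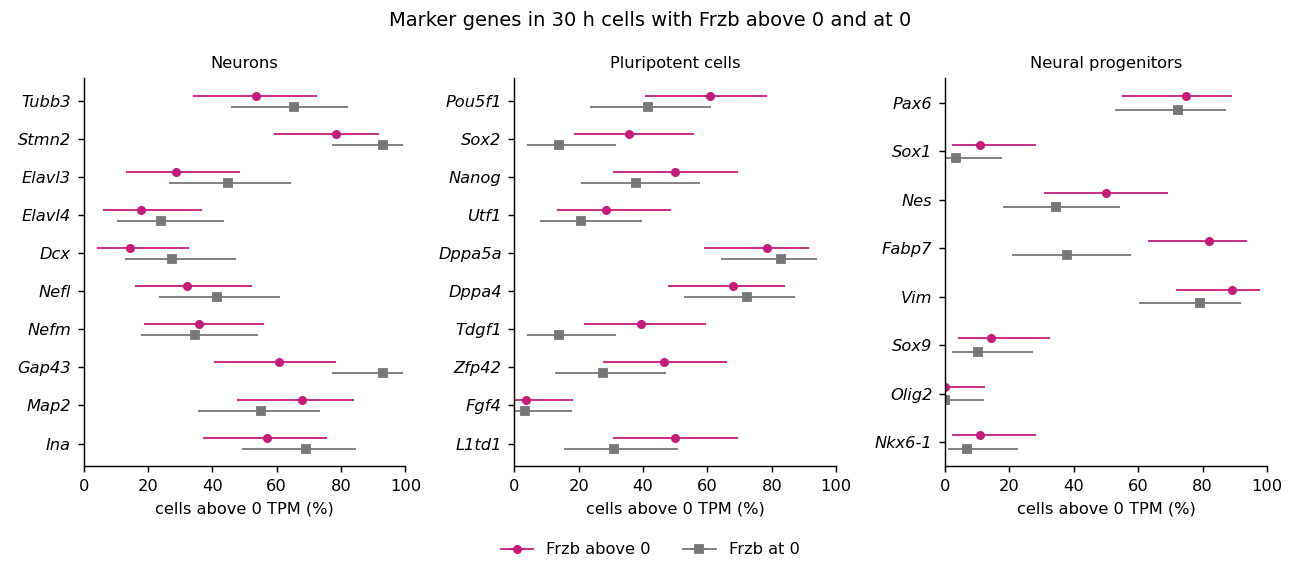
Share of 30 h cells with each marker gene above 0 TPM (horizontal axis, percent, with exact 95% intervals) among the 28 cells with Frzb above 0 (pink circles, upper of each pair) and the 29 with Frzb at 0 (grey squares). Gap43, at 17 of 28 and 27 of 29 cells, and Fabp7, at 23 of 28 and 11 of 29, lie furthest apart, and only the intervals of Fabp7 do not overlap.

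The genes whose means most resembled those of Frzb were ranked over the 8 time points, after subtracting from each gene's log2(mean TPM + 1) its average within its library set. Ranked were 5268 named genes with a mean of at least 10 TPM and at least 25% of cells above 0 at 30 h. Frzb was chosen for its level at that time, so genes high only there could enter, also into the percentile below. The 5 most alike were Hecw2, Nnat, Pard3, Cirbp and Gnai2, with Pearson r of 0.99, 0.99, 0.98, 0.97 and 0.97. The 95th percentile of all genes was 0.81, so high values are common over 8 points, and those points share their libraries' depth. Nnat, a small membrane protein of developing neural cells, averaged 378 TPM at 30 h and 15.3 TPM at 6 h in the set of 6 to 30 h. In the other set Nnat averaged 230 TPM at 48 h and 14.8 TPM at 0 h. Hecw2, an E3 ubiquitin ligase gene, was like Frzb listed at 0 at 0 h, and averaged 16.9 TPM at 30 h and 0.388 TPM at 6 h.

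Cell by cell the likeness was weak. Over the 57 cells of 30 h the 5 highest r of log2(TPM + 1) with Frzb were those of Tk1, Dmap1, Slc2a1, Krr1 and Atad5, between 0.49 and 0.51, and at 24 h the same genes stood between -0.07 and 0.19. The 5 genes most alike over time points had r between -0.09 and 0.29 over the 30 h cells. Such values in sparse data single out no gene.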

How the data were processed

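Single-cell SMART-Seq2 libraries of 768 cells, 96 at each of 8 time points, were sequenced with 50-base single-end reads to 325000 reads per cell on average, per the labels' protocols. The authors deposited TPM values in a table of 27723 genes, whose columns each sum to 1000000 within rounding. Tools named in the submitters' processing notes are Picard and bcl2fastq, with the mm10 build, and the aligner is not given in the sources used. The reads behind a TPM value are unknown, and there are no molecular identifiers. A value of 0 can be a missed transcript.

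Time points came from the labels, which name no separate cultures, so each is 1 sample and no p-value was made. Wells were sorted as single cells and no doublet call was run. A cell needed 2000 genes above 0, which kept 368 and left out 400. Of cells with 1500 to 1999 genes, just outside this limit, 3 of 48 had Frzb above 0, and of those with 2000 to 2499 genes, just inside, 2 of 22. Fold changes are log2 ratios of mean TPM + 1, a scale that shrinks changes of low genes. To pass, a gene needed a mean of at least 10 TPM and at least 25% of cells above 0 in the higher time point, and 2-fold was the measure of size. Beside a share of 0 stands the limit of 3 cells divided by those kept. Folds were checked on simulated cells.

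The members, the Wnt and marker lists and the rules were chosen with earlier results of these data known. Named were the 7 members, list genes that passed with at least 2-fold (at most 6 per role), 6 further pathway genes (Axin2, Sp5, Lef1, Ctnnb1, Dkkl1, Cer1) and the 5 genes most like Frzb by each of 2 correlations. Wnt8a, Wnt3, Rspo1, Rspo3, Lgr4, Igfbp4, Hprt, Sod1 and the markers described by name were chosen after their values were seen. Of 98 list genes 1 was matched through a RefSeq synonym and 1 was not matched. Gene positions are from GENCODE M21 and promoters from RefSeq, both on GRCm38.p6. Alternatives were other pseudocounts, no filter, other limits on genes per cell, odd or even cells, other measures of detection, rescaled means, means without the highest cell and means of log2 values. The work used scipy 1.17.1, pandas 2.3.3 and numpy 2.4.6 in Python 3.11.15, with plots from matplotlib 3.10.9.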

Additional observations from a re-analysis of the deposited data

Results flagged for a closer look

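Among the 82 cells of 48 h left out for having under 2000 genes, Frzb was above 0 in 5 (6.1%), Sfrp1 in 5 (6.1%) and Sfrp2 in 11 (13.4%). They are listed because these cells entered no comparison of the report other than the alternatives with more cells, and the shares are above the exact upper bounds from the 59 left-out cells of 0 h. In those, Frzb and Sfrp1 were above 0 in none (bound 6.06%) and Sfrp2 in 1 (bound 9.09%). For Frzb and Sfrp1 the margin is slight, and the exact intervals at 48 h (2.01 to 13.7% for each) overlap those at 0 h, as does that of Sfrp2 (6.89 to 22.7%). The left-out cells had a median of 1045 genes at 48 h and 366 at 0 h, and the part of this in the difference was not tested.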

How the results depend on the processing

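No paired analysis was possible because each time point is 1 sample and cell numbers only name wells. The log2 fold change of Frzb, 30 h against 6 h, was between 1.77 (pseudocount 10) and 6.42 (pseudocount 0.1), and could not be computed in even-numbered cells, where Frzb was listed at 0 at 6 h. Its share of cells at 30 h was 29.2% with all cells and 14.0% among the 2000 highest genes of a cell. The count of members at least 2-fold higher was 2 without the filter in 30 h against 6 h. In 12 h against 0 h it was 3 without the filter and 0 with pseudocount 10, odd-numbered cells, even-numbered cells or means of log2 values. Wnt pathway genes at least 2-fold higher in 30 h against 6 h numbered 4 with pseudocount 10, 19 without the filter and 3 with all cells. Those lower numbered 0 with pseudocount 10, 5 with all cells and 2 with at least 1000 genes per cell, a limit added after the data were seen.

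For 27 single-gene fold changes 218 of 265 alternative values stayed in direction and side of 2-fold, 37 came under 2-fold, 2 passed it and 8 turned. With all cells Sfrp2 turned to 1.64 at 48 h against 0 h (0.080 with at least 1000 genes), and Dvl3, Tcf7l2 and T turned to -0.38, -0.96 and -0.12 at 30 h against 6 h. At 12 h against 0 h Fzd7 and Ccnd2 turned to -0.094 and -0.071 as means of log2 values and Ccnd1 to -0.82 in even-numbered cells. The cause was not tested. Sampling limits Sfrp5, Dkk1, Dkk3 and Wif1 most, as each was seen in at most 8 cells of a time point.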
